A study of Mus musculus with 2 samples.

Results

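The crystallin and heat shock chaperones described here were 10 of the 32285 genes counted in single nuclei of mouse brain: the small heat shock proteins *Cryab* and *Hspb1*, the HSP70 family genes *Hspa1a*, *Hspa1b*, *Hspa8* and *Hspa5*, the HSP90 family genes *Hsp90aa1* and *Hsp90ab1*, and the co-chaperones *Hsph1* and *Dnajb1*. They were chosen by name with earlier results of these data known, in particular a lower *Cryab* level in oligodendrocytes after subarachnoid haemorrhage (SAH), so their levels and ratios are given as a description with no test. The study compared 2 libraries of nuclei. The SAH library came from the ipsilateral hemisphere of 3 pooled male C57BL/6J mice, by the labels 6 to 8 weeks old though the study's methods give an older range, taken 12 h after an artery was perforated from within. The Normal library came from the same region of 3 pooled male mice of the same strain and age, which the labels call normal and the study's methods describe as sham-operated. With 1 library per group, mice cannot be told apart within a library, and a difference between libraries cannot be told apart from a difference between conditions.

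Heat shock proteins are chaperones, which hold or refold other proteins and keep them from clumping. Some are made at all times, such as *Hspa8* and *Hsp90ab1* in the cytosol and *Hspa5* in the endoplasmic reticulum, whereas *Hspa1a*, *Hspa1b* and *Hspb1* are low in unstressed cells and are switched on by heat shock factors, which bind inverted repeats of GAA in promoters. *Cryab* encodes αB-crystallin, a small heat shock protein found in the lens, muscle and glia, and in the brain it is known as an oligodendrocyte gene.

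The start sites of the inducible members are shown because these genes were high together in a small set of SAH nuclei described further on. RefSeq start sites on GRCm38.p6 were listed for 6 of the 10 members and not for *Cryab*, *Hspa8*, *Hsp90aa1* and *Hsp90ab1*. Each sequence runs 5′ to 3′ from 250 bases before the start to 50 bases after it, in lower case, and capitals mark every GAANNTTC or TTCNNGAA, a pair of heat shock units that reads the same on both strands:
*Hspa1a*, chr17:34972107-34972406, minus strand: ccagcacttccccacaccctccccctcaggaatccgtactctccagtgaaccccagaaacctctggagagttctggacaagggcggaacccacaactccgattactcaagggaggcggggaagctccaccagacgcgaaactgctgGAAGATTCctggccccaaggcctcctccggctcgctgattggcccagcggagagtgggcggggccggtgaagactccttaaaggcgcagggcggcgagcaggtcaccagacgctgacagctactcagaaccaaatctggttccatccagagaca
*Hspa1b*, chr17:34959189-34959488, minus strand: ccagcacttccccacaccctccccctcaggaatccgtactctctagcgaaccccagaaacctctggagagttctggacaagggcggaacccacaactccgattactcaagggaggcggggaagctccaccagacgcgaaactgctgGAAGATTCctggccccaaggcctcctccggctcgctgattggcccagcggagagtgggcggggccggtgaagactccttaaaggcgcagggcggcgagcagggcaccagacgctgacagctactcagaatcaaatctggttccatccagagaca
*Hspb1*, chr5:135887669-135887968, plus strand: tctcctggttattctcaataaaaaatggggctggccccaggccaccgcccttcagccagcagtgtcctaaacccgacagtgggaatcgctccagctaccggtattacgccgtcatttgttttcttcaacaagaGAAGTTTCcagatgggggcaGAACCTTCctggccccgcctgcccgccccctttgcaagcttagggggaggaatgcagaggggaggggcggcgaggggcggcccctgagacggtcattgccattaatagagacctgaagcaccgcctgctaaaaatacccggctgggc
*Hsph1*, chr5:149636287-149636586, minus strand: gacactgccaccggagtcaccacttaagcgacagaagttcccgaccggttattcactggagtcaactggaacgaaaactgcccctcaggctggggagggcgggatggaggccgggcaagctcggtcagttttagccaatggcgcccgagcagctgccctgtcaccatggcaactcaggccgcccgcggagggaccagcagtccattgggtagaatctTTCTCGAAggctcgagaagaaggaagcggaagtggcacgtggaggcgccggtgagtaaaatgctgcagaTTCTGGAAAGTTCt
The windows of *Hspa1a* and *Hspa1b* differed at 4 of 300 bases, and each held 1 such pair. The window of *Hspb1* held 2 pairs. That of *Hsph1* held 3, of which the last 2 overlapped and made 3 units in a row. No pair was found in the windows of *Hspa5* or *Dnajb1*. A pair stood in 15.1% of all 32851 listed promoter windows and 3 units in a row in 0.603%, so a pair alone is a common match and is given as a description of the letters, not as a bound site.

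In the GENCODE annotation of GRCm38, *Cryab* lies at chr9:50751325-50756636 on the plus strand with up to 4 exons, and its first 1030 bases overlap *Hspb2* on the other strand. *Hspb2* itself had 1 UMI in Normal and 3 in SAH oligodendrocytes. A UMI, or unique molecular identifier, tags 1 captured RNA molecule. *Hspa1a* (chr17:34969190-34972156) and *Hspa1b* (chr17:34956436-34959238) are neighbouring genes of 1 exon each on the minus strand. Of the 150-base windows of their transcripts, 38.1% and 40.5% were shared with the other gene, but the last 856 bases of *Hspa1a* and 692 of *Hspa1b* were not, and the assay reads the 3′ end. Their counts were kept apart, and their sum is given where it matters. *Hspa1a* also overlaps *Gm20481* on the other strand.

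After filters, 10955 Normal and 15536 SAH nuclei remained, with medians of 6852 and 7838 UMIs. Nuclei were assigned to a cell class by marker genes that did not include the members, and 6 classes had at least 50 nuclei in each library. Oligodendrocytes, the myelinating glia, numbered 1731 and 3409, and all 8 of their markers were detected in both libraries. Microglia numbered 988 and 1218, cortical and hippocampal excitatory neurons 3926 and 5256, thalamic excitatory neurons 292 and 598, inhibitory neurons 1239 and 1123, and striatal projection neurons 166 and 163. Astrocytes were too few to compare, at 17 and 12, and 2538 and 3675 nuclei fell in no gate or in more than 1. There were 78 cell barcodes present in both libraries.

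Of the whole library, 2 features ran through every class and are given ahead of the ratios below. The shortest 25% of genes was lower in SAH, with a median log2 ratio of -0.45 in oligodendrocytes against 0.17 for the longest 25%, and all members but *Hsph1* (22090 bases) are at most 12124 bases long. The summed level of ribosomal protein genes was also lower, at 5000 UMIs in 1000000 in Normal and 2785 in SAH oligodendrocytes, as was the share of mitochondrial UMIs, at 0.192% and 0.145%. Their part in the members' ratios was not tested, but some ratios are also given, where stated, after subtracting the median log2 ratio of 500 genes of like length.

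*Cryab* had the largest difference of the members measured with at least 50 UMIs in oligodendrocytes. Normal oligodendrocytes held 1437 *Cryab* UMIs, or 386 CPM (counts per 1000000 UMIs of the class; 95% exact Poisson interval 367 to 407). SAH oligodendrocytes held 431, or 51.7 CPM (46.9 to 56.8). The SAH level was therefore 7.47-fold lower, a log2 ratio of -2.90 with an exact counting interval of -3.06 to -2.74. All intervals here cover counting error only and say nothing of the spread between mice. After subtraction of the genes of like length, the log2 ratio was -2.40. *Mbp*, which encodes myelin basic protein, stood at 2445 and 2385 CPM in the same nuclei (log2 ratio -0.04). It belongs to the 8 markers that gated these nuclei, so its level is not independent of that choice. The summed level of the 8 markers was 25963 in Normal and 15726 in SAH.

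**Figure D1:**
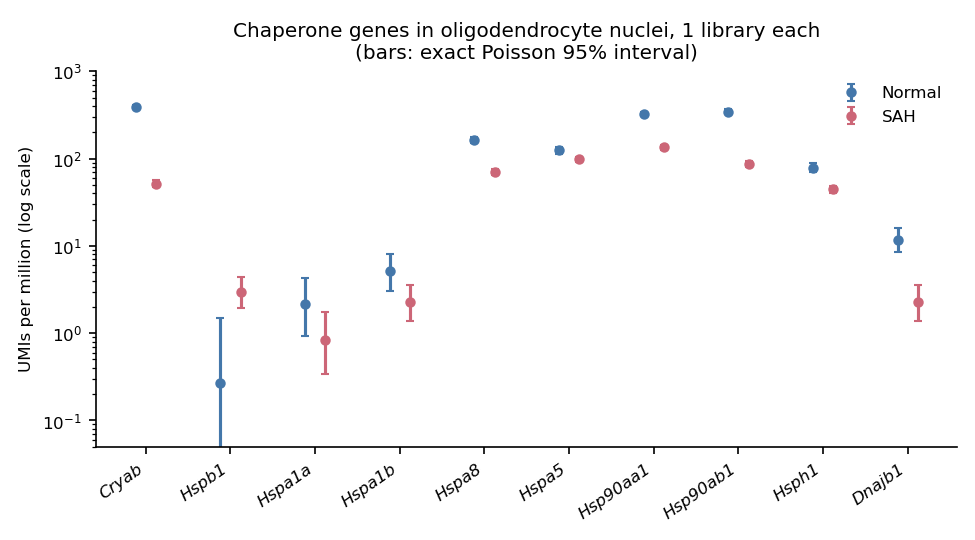
Level of each gene in oligodendrocyte nuclei of the Normal and SAH libraries, in CPM on a log axis; points are the level of 1 library and bars the exact Poisson 95% interval. *Cryab* was at 386 and 51.7, and *Hspb1* alone had its SAH point above its Normal point.

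The difference in *Cryab* was spread over the nuclei rather than carried by a few of them. In Normal oligodendrocytes, 813 of 1731 nuclei (47.0%) had at least 1 *Cryab* UMI, and in SAH 387 of 3409 (11.4%). With every nucleus thinned to 1000 UMIs and shallower nuclei left out (145 and 88), the shares were 29.9% (exact binomial interval 27.7 to 32.3) and 5.36% (4.62 to 6.18). At least 3 *Cryab* UMIs were found in 144 Normal nuclei (8.32%) and in 7 SAH nuclei (0.205%), and the highest counts were 9 and 4.

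**Figure D2:**
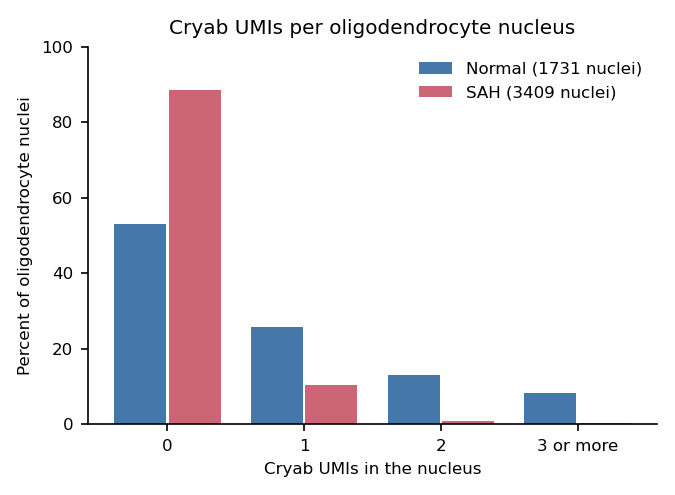
Percent of oligodendrocyte nuclei with 0, 1, 2 or at least 3 *Cryab* UMIs in the Normal (1731 nuclei) and SAH (3409 nuclei) libraries, not thinned. At least 3 UMIs were found in 8.32% of Normal and 0.205% of SAH nuclei.

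The lower level was seen in each subset of oligodendrocytes examined, which were chosen after the data were seen. Among nuclei with a UMI of *Opalin*, a gene of myelin-forming oligodendrocytes, *Cryab* was at 426 CPM in Normal (828 nuclei) and 71.9 in SAH (749 nuclei), a log2 ratio of -2.57. Among nuclei with a UMI of *Anln* or *Hapln2*, genes of mature oligodendrocytes, it was at 372 and 44.2, a ratio of -3.07. Nuclei with a UMI of *Il33* had 447 and 54.2, a ratio of -3.04. When nuclei were split into 4 groups of like size by their UMI totals, the ratios ran from -3.16 to -2.60.

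The other cell classes held far less *Cryab*. In the Normal library, microglia had 24.0 CPM (16.8 to 33.2), inhibitory neurons 6.07 (4.75 to 7.65), striatal projection neurons 5.52 (2.38 to 10.9), cortical and hippocampal excitatory neurons 4.97 (4.38 to 5.62) and thalamic neurons 3.57 (2.04 to 5.79). Oligodendrocytes and then microglia stood above the rest, and the intervals of the 4 neuronal classes all overlapped. SAH levels were lower in each, at 9.92 in microglia (log2 ratio -1.27, interval -2.09 to -0.48) and 1.43 in cortical and hippocampal neurons (-1.80, -2.14 to -1.46). Thalamic neurons, with 16 and 12 UMIs, and striatal projection neurons, with 8 and 4, lay under the minimum of 50. The striatal interval ran from -3.34 to 0.74, so the direction there was not settled.

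Neurons are not known as a source of *Cryab*, so their share of nuclei with a UMI is set beside that of oligodendrocytes. Thinning takes away more of the free RNA in a deeper nucleus, so the thinned neuronal share is not a background of matched depth. Not thinned, 6.04% of Normal cortical and hippocampal neurons and 1.96% of SAH ones held a *Cryab* UMI. Thinned to 1000 UMIs, 0.688% of Normal cortical and hippocampal neurons and 0.190% of SAH ones held a *Cryab* UMI, at median depths of 10946 and 12597 UMIs before thinning, and 2.84% and 0.770% of microglia did, at 1372 and 1794. The oligodendrocyte shares of 29.9% and 5.36% lay above both in their own library, at median depths of 1896 and 2225. For 100 *Mbp* UMIs there were 15.8 *Cryab* UMIs in Normal oligodendrocytes, 10.6 in cortical and hippocampal neurons and 62.1 in microglia, and 2.17, 3.94 and 23.0 in SAH. As a gating marker, *Mbp* was not independent of the choice of oligodendrocyte nuclei. The part of free RNA in the neuronal and microglial ratios was not tested, and no expression by neurons is read from these counts.

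*Hspb1* encodes the small heat shock protein HSP27 and was rare everywhere. Oligodendrocytes held 1 UMI in Normal and 25 in SAH, a log2 ratio of 3.48 whose interval of 0.87 to 8.84 is wide because of the single Normal UMI. Cortical and hippocampal excitatory neurons held 2 and 46 UMIs (log2 ratio 4.01, 2.07 to 7.10), and inhibitory neurons 1 and 9. Over all kept nuclei there were 21 *Hspb1* UMIs in Normal and 170 in SAH, or 0.218 and 1.21 CPM. Thus *Hspb1* and *Cryab*, members of 1 family, differed in opposite directions between the libraries in oligodendrocytes.

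Of the HSP70 family, *Hspa8*, the constitutive cytosolic form, was at 165 CPM in Normal oligodendrocytes (153 to 179) and 70.7 in SAH (65.1 to 76.6), a log2 ratio of -1.23 (-1.39 to -1.06). *Hspa5*, which encodes the endoplasmic reticulum chaperone BiP, was at 124 and 98.6, a ratio of -0.33 (-0.50 to -0.17). After subtraction of the genes of like length, *Hspa8* remained at -0.84 and *Hspa5* was at 0.16. The inducible genes were scarce in oligodendrocytes: *Hspa1a* had 8 UMIs in Normal and 7 in SAH, and *Hspa1b* 19 in each library. Summed, they were at 7.26 and 3.12 CPM, a log2 ratio of -1.22 (-2.05 to -0.39), or -0.58 after the subtraction. Thinned to 1000 UMIs a nucleus, 2 *Hspa1a* UMIs were left in 1586 Normal nuclei and 5 in 3321 SAH nuclei, and 4 and 9 of *Hspa1b*. Another random draw left 3 and 4, and 5 and 7. With so few UMIs the direction was not settled at matched depth.

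Both HSP90 genes were lower in SAH oligodendrocytes. *Hsp90ab1*, the constitutive cytosolic HSP90, was at 346 CPM in Normal (328 to 366) and 87.3 in SAH (81.1 to 93.9), a log2 ratio of -1.99 (-2.12 to -1.85). *Hsp90aa1*, the stress-responsive form, was at 325 and 134, a ratio of -1.28 (-1.39 to -1.16). Of the co-chaperones, *Dnajb1*, an HSP40 that delivers clients to HSP70, had 44 UMIs in Normal and 19 in SAH, at 11.8 and 2.28 CPM (log2 ratio -2.38, -3.23 to -1.57). *Hsph1*, the HSP110 that acts as a nucleotide exchange factor of HSP70, was at 78.8 and 44.4 (log2 ratio -0.83, -1.05 to -0.60). After subtraction of the genes of like length the ratios were -1.49 for *Hsp90ab1*, -0.98 for *Hsp90aa1*, -1.80 for *Dnajb1* and -0.71 for *Hsph1*.

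Counted together, 7 members had at least 50 UMIs over both libraries in oligodendrocytes, and *Hspb1*, *Hspa1a* and *Hspa1b* did not reach that minimum. All 7 were lower in SAH and 5 of them by at least 2-fold: *Cryab*, *Dnajb1*, *Hsp90ab1*, *Hsp90aa1* and *Hspa8*. Among all 11313 genes with as many UMIs there, 6.05% were at least 2-fold lower and 7.74% at least 2-fold higher. As *Cryab* was chosen on this contrast, nothing is read from the members' count. The median log2 ratio of the 7 was -1.28, beside -0.06 for all genes. After subtraction of the genes of like length their median was -0.98, and *Cryab*, *Hsp90ab1* and *Dnajb1* were still at least 2-fold lower, beside 2.51% of all genes after the same subtraction.

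Levels of different genes were compared per kilobase of gene, since intronic reads were counted. The assay reads the 3′ end, and whether UMIs scale with gene length was not tested. In Normal oligodendrocytes *Cryab* was highest at 72.7 CPM per kilobase, followed by *Hsp90ab1* at 63.0, *Hsp90aa1* at 26.8, *Hspa5* at 22.3 and *Hspa8* at 18.2. In SAH the order was *Hspa5* at 17.7, *Hsp90ab1* at 15.9, *Hsp90aa1* at 11.1, *Cryab* at 9.74 and *Hspa8* at 7.76. The order depended on the division by length. In CPM the SAH order was *Hsp90aa1* at 134, *Hspa5* at 98.6, *Hsp90ab1* at 87.3, *Hspa8* at 70.7 and *Cryab* at 51.7. In Normal it was *Cryab* at 386, *Hsp90ab1* at 346, *Hsp90aa1* at 325, *Hspa8* at 165 and *Hspa5* at 124.

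Most other members were also lower in SAH in the other classes, by different amounts. In cortical and hippocampal excitatory neurons *Hsp90ab1* was at 65.9 CPM in Normal and 28.8 in SAH (log2 ratio -1.19), *Hspa5* at 105 and 51.5 (-1.03), *Hspa8* at 43.7 and 25.1 (-0.80), *Hsp90aa1* at 54.6 and 31.6 (-0.79), *Hsph1* at 36.0 and 22.6 (-0.67) and *Dnajb1*, with 163 and 154 UMIs, at a log2 ratio of -0.60. Here 9 members had at least 50 UMIs, of which 3 were at least 2-fold lower and 2 at least 2-fold higher, beside 5.18% and 8.08% of 17436 genes. In inhibitory neurons 4 of 7 were at least 2-fold lower (5.5% of all genes), in thalamic neurons 2 of 5 (4.19%), in striatal projection neurons 4 of 5 (7.39%) and in microglia 2 of 6 (5.45%). None of the members with 50 UMIs was at least 2-fold higher in these 4 classes, where 3.8%, 4.25%, 2.56% and 6.83% of all genes were, in the same order. Most of these counts were lost after subtraction of the genes of like length. The members then at least 2-fold lower were 1 of 9 in cortical and hippocampal neurons (2.08% of all genes), 0 of 7 in inhibitory (1.02%), 1 of 5 in thalamic (1.26%) and 0 of 5 in striatal projection neurons (2.53%), and 1 of 6 in microglia (3.79%).

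*Hsp90ab1* was lower in SAH in each of the 6 classes, with log2 ratios from -1.99 in oligodendrocytes to -0.95 in microglia. *Hsp90aa1* lay between -1.28 in oligodendrocytes and -0.79 in cortical and hippocampal neurons. *Hspa8* lay between -1.23 in oligodendrocytes and -0.49 in microglia, and *Hsph1* between -1.29 in striatal projection neurons and -0.49 in microglia.

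*Hspa5* had another order than these. Its log2 ratio was -0.33 in oligodendrocytes and -0.08 in microglia (interval -0.24 to 0.07), but -1.03 in cortical and hippocampal neurons (-1.09 to -0.97), -0.997 in thalamic neurons, -0.98 in inhibitory neurons and -1.44 in striatal projection neurons. The intervals of both glial classes did not overlap those of the neurons, and whether the classes differ beyond the spread between mice could not be tested. Microglia held the most *Hspa5* of the 6 classes, at 386 CPM in Normal and 364 in SAH.

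**Figure D3:**
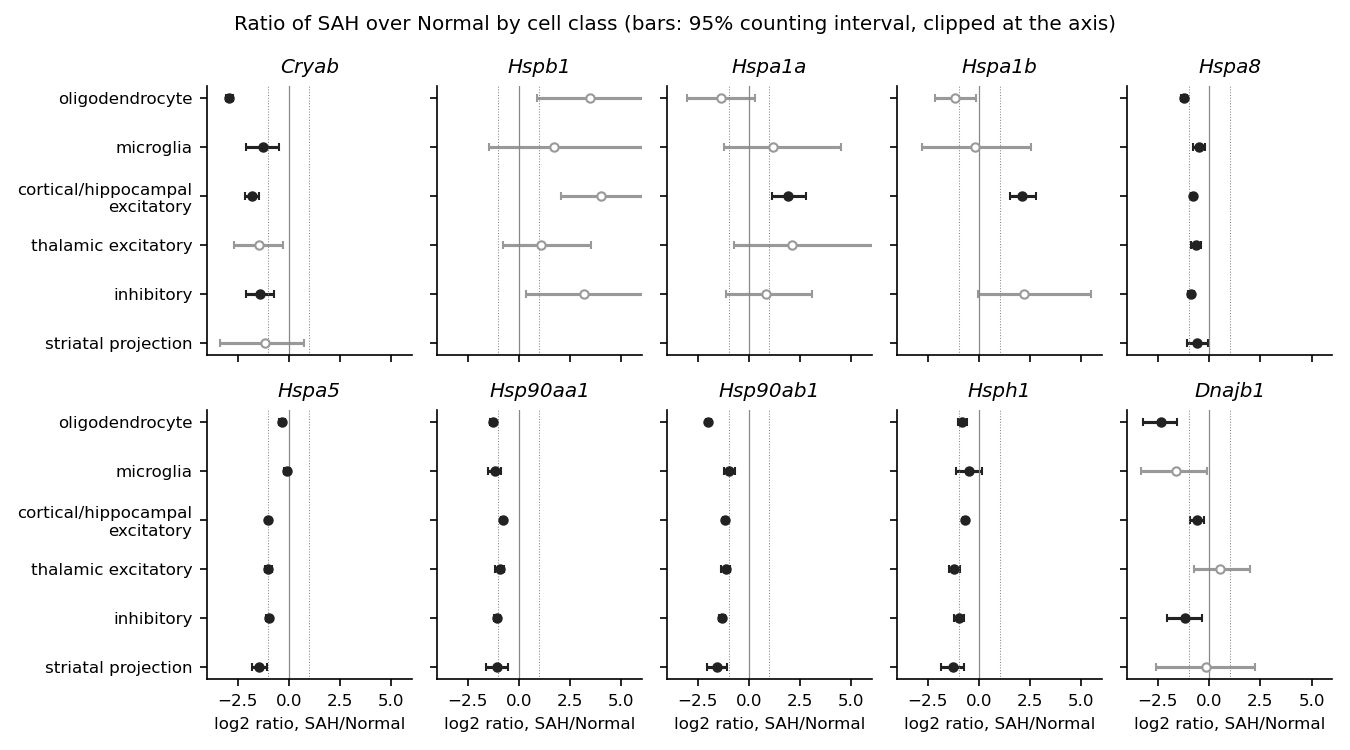
Log2 ratio of SAH over Normal of each gene (1 panel each) in the 6 cell classes, with exact 95% counting intervals; black points had at least 50 UMIs over both libraries, open grey points fewer, and classes with no UMI in a library have no point. The dotted lines mark 2-fold; *Cryab* in oligodendrocytes was at -2.90, and *Hspa1a* and *Hspa1b* were at 1.89 and 2.12 in cortical and hippocampal neurons.

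The inducible HSP70 genes were higher in SAH in cortical and hippocampal neurons. *Hspa1a* had 16 UMIs in Normal and 85 in SAH cortical and hippocampal neurons, or 0.314 and 1.17 CPM (log2 ratio 1.89, interval 1.11 to 2.77). *Hspa1b* had 26 and 161, or 0.511 and 2.21 CPM (2.12, 1.51 to 2.77). In thalamic neurons *Hspa1b* had 0 UMIs in Normal and 17 in SAH, and the lower limit of its log2 ratio was 0.996. Of the 17, 10 lay in 1 nucleus. Without that nucleus 7 remained and the lower limit was -0.52, so the direction there was not settled. In the nuclei outside the gates *Hspa1a* had 11 and 130 UMIs and *Hspa1b* 8 and 173.

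These UMIs were concentrated in few nuclei. Over all kept nuclei, *Hspa1a* and *Hspa1b* together had 100 UMIs in Normal, spread over 97 nuclei with never more than 2 in 1 nucleus. In SAH they had 634 UMIs, of which 432 (68.1%) lay in 37 nuclei with at least 3 each and up to 45. Those 37 were 0.238% of the SAH nuclei (exact binomial interval 0.168 to 0.328). In Normal 0 of 10955 nuclei had at least 3, with an exact upper limit of 0.0337%. Both genes were detected together in 36 SAH nuclei and in 0 Normal nuclei. The limit of 3 UMIs was chosen after the data were seen. At least 10000 UMIs were found in 3726 Normal and 6071 SAH nuclei, and the part of depth in this pattern was not tested.

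Of the 37 nuclei, 12 were gated as cortical and hippocampal excitatory neurons, 1 as a thalamic neuron and 1 as an astrocyte, and 23 fell in no gate. The score of general neuronal genes passed its limit in 34 of them, and in 10926 of all 15536 kept SAH nuclei. None of the 37 was gated as an oligodendrocyte or microglial nucleus, but the cell type of the 23 in no gate was not settled. In SAH, oligodendrocytes and microglia were 21.9% and 7.84% of the kept nuclei, with medians of 2225 and 1794 UMIs. Whether depth played a part in the absence of these gated classes was not tested. The median of the 37 was 16200 UMIs, against 7823 in the other SAH nuclei, and their median doublet score was 0.0413 against 0.0244. With doublets not removed there were 44 such nuclei. The part of doublets in this pattern was not tested.

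**Figure D4:**
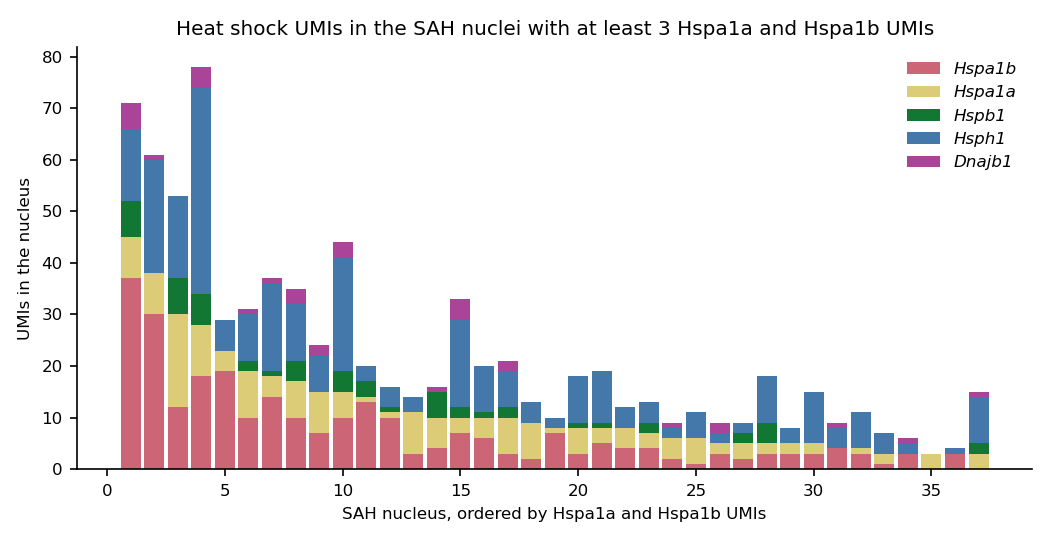
UMIs of *Hspa1b*, *Hspa1a*, *Hspb1*, *Hsph1* and *Dnajb1* (stacked) in each of the 37 SAH nuclei with at least 3 *Hspa1a* and *Hspa1b* UMIs, ordered by the sum of those 2 genes, which chose them. The highest sum was 45, and *Hsph1* was detected in 35 of the 37 nuclei.

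The genes that did not choose these nuclei were then compared with the UMIs expected from the other SAH nuclei of the same class, scaled to the same UMI total. The 23 nuclei in no gate were compared with the other SAH nuclei in no gate, which can hold several cell types. Nuclei were not matched by depth, and the part of cell type and depth in the sums below was not tested. The counts are a description, since the nuclei were chosen in the same library. *Hspb1* had 57 UMIs where 0.631 were expected, 90.4-fold more (Poisson interval 68.5 to 117), and was detected in 19 of the 37 nuclei. *Dnajb1* had 33 where 1.49 were expected (22.1-fold) and *Hsph1* 300 where 14.5 were expected (20.7-fold, 18.4 to 23.1). *Hsp90aa1* had 256 against 31.6 (8.11-fold), *Hsp90ab1* 182 against 27.1 (6.73-fold), *Hspa8* 168 against 27.0 (6.22-fold) and *Hspa5* 161 against 60.3 (2.67-fold). *Cryab* had 8 against 2.33, and 7 of the 8 lay in 1 nucleus.

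Among the other chaperone genes in these nuclei, the mitochondrial chaperonin subunits *Hspe1* (70 UMIs, 9.76-fold) and *Hspd1* (124, 8.84-fold) and the HSP40 genes *Dnaja1* (211, 6.94-fold) and *Dnaja4* (31, 5.87-fold) had the largest excesses of those with at least 5 expected UMIs. Of the 11 chaperonin genes, 8 were at least 2-fold over the expected sum, and of 15 other HSP40 genes 3 were. Of the 14 endoplasmic reticulum genes with at least 5 expected UMIs none was, and their median was 0.707 of the expected sum. As only 9.91% of all genes were at least 2-fold over, nothing is read from that count. The list also leaves out the endoplasmic reticulum chaperone *Hspa5*, a member, which was 2.67-fold over. *Hsp90b1*, the HSP90 of the endoplasmic reticulum, had 45 UMIs where 76.8 were expected. Over all 9781 genes with an expected sum of at least 5, 9.91% were at least 2-fold over it and 22.9% at least 2-fold under it, with a median of 0.924.

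**Figure D5:**
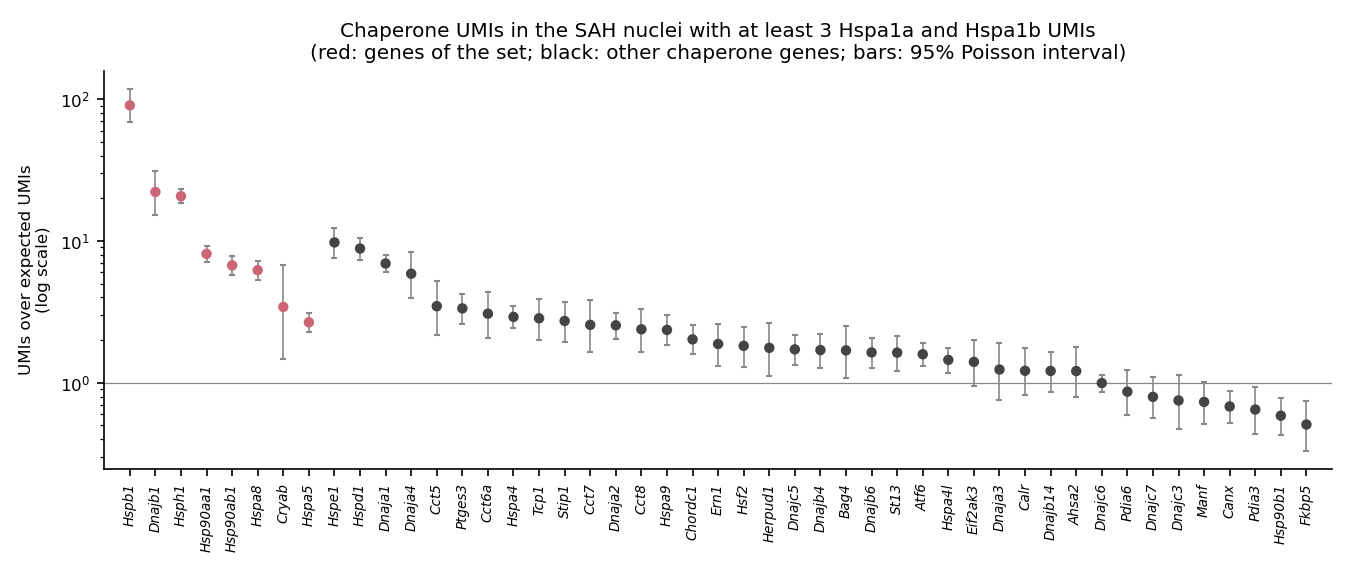
UMIs over expected UMIs (log axis) in the same 37 SAH nuclei, with 95% Poisson intervals of the count; red points are members that did not choose the nuclei and black points other chaperone genes with at least 5 expected and 20 observed UMIs. *Hspb1* was at 90.4, *Hsph1* at 20.7 and *Hspe1* at 9.76, whereas *Hsp90b1* was at 0.586.

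Without these 37 nuclei, *Hspa1b* in cortical and hippocampal neurons had 26 UMIs in Normal and 32 in SAH (log2 ratio -0.21, interval -1.004 to 0.59) and *Hspa1a* 16 and 33 (0.53, -0.37 to 1.49). The higher levels of both genes there rested on 12 nuclei of 5256. *Hspb1* without them still had 2 and 26 UMIs (3.19, 1.19 to 6.31). *Hspa8* was at -0.83, within its counting interval, and *Hsph1* went from -0.67 (-0.77 to -0.57) to -0.78, outside it. In the nuclei outside the gates *Hspa1b* was at 8 and 43 UMIs without them (1.84, 0.74 to 3.14).

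Other chaperone genes of the same pathways also had a median below that of all genes in SAH oligodendrocytes. Of 84 genes in 7 lists, 71 had at least 50 UMIs there, 11 were at least 2-fold lower and 1 at least 2-fold higher, beside 6.05% and 7.74% of all genes, and the median log2 ratio was -0.53, or -0.29 after subtraction of genes of like length. After that subtraction 3 of the 71 were at least 2-fold lower, beside 2.51% of all genes: *Stip1* (-1.33), *Ahsa1* (-1.23) and *Hspa4l* (-1.19). The ratios that follow are without it. The 11 genes of the chaperonin list, *Trap1* among them, had a median of -0.78. Of these, 2 were at least 2-fold lower, *Cct5* (-1.16, or -0.84 after the subtraction) and *Hspe1* (-1.07, or -0.46). Of 16 co-chaperone genes of HSP90 and HSP70, 4 were at least 2-fold lower, among them *Stip1*, the adaptor that links both (47.8 and 16.9 CPM, log2 ratio -1.50). Of the other HSP40 genes 1 of 15 was, *Dnajb2* (208 and 82.4, -1.33, or -0.97 after the subtraction), and of the other HSP70 and HSP110 genes 1 of 8, *Hspa4l* (112 and 50.6, -1.14). Of 17 endoplasmic reticulum genes 2 were, with *Calr* at -1.03 (-0.50 after the subtraction). *Hsbp1*, a negative regulator of heat shock factor, was 1 of 3 measured heat shock factor genes and stood at -1.15 (-0.58 after the subtraction), whereas *Hsf1* stood at 0.35 (-0.01 to 0.73). Of 8 genes listed as other small heat shock proteins, only *Hspb11* had 50 UMIs, at 0.14. It was listed by its symbol and encodes an intraflagellar transport subunit, so it gives no comparison within the family of *Cryab*.

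The single gene that was at least 2-fold higher was *Fkbp5*, an HSP90 co-chaperone of steroid receptors that glucocorticoids are known to induce. It was at 60.2 CPM in Normal oligodendrocytes (224 UMIs) and 588 in SAH (4898 UMIs), a log2 ratio of 3.29 (3.09 to 3.49). In microglia it was at 292 and 1683 (2.53), and in cortical and hippocampal neurons at 44.7 and 84.9 (0.93). Thalamic neurons had 36.8 and 84.9 (1.21, 0.96 to 1.46), and inhibitory neurons 33.7 and 50.2 (0.57).

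In the other classes the same 84 genes had medians nearer to those of all genes. The median log2 ratio was -0.10 in microglia, -0.42 in cortical and hippocampal, -0.34 in thalamic, -0.51 in inhibitory and -0.39 in striatal projection neurons, beside -0.0019, -0.13, -0.11, -0.19 and -0.19 for all genes. At least 2-fold lower were 3 of 64 in microglia (5.45% of all genes), 7 of 75 in cortical and hippocampal neurons (5.18%), 6 of 67 in thalamic (4.19%), 7 of 72 in inhibitory (5.5%) and 8 of 45 in striatal projection neurons (7.39%). After subtraction of the genes of like length these counts were 2, 0, 1, 0 and 0, beside 3.79%, 2.08%, 1.26%, 1.02% and 2.53% of all genes. The medians of the 84 genes were then -0.0059, -0.21, -0.23, -0.22 and -0.097 in the same order, beside -0.29 in oligodendrocytes. The endoplasmic reticulum list had the lowest median of the lists in each neuronal class. It was at -0.89 in cortical and hippocampal neurons, with 5 of 17 genes at least 2-fold lower. In thalamic, inhibitory and striatal projection neurons it was at -0.73, -0.74 and -0.82. After subtraction of the genes of like length it was at -0.56 in cortical and hippocampal neurons, with 0 of 17 genes at least 2-fold lower.

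Over the 12 levels of 6 classes in 2 libraries, the genes whose log2 profile was most like that of *Cryab* were *Degs1* (Pearson r = 0.982), *Gng11* (0.981), *Rnf7* (0.975), *Psph* (0.975) and *Cldnd1* (0.973), among 16549 genes. *Gng11* was at 78.8 CPM in Normal oligodendrocytes and 18.8 in SAH, and *Degs1* at 243 and 140. Those most like *Hspa8* were *Cox6b1* (0.990), *Ndufb11* (0.986), *Smdt1* (0.984), *Park7* (0.982) and *Srsf2* (0.978). The 12 points share libraries and classes, so these values are a description only.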

How the data were processed

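Nuclei of frozen brain tissue were profiled with the 10x Genomics 3′ v3.1 kit, in 1 Normal and 1 SAH library, each of 3 pooled mice. The authors deposited raw UMI counts per gene and nucleus, aligned to mm10 with intronic reads counted; the file headers and the study's methods name Cell Ranger 6.1.2, the submitters' processing notes 5.0.0. The deposited counts held 12204 Normal and 18209 SAH nuclei with 114970719 and 172604358 UMIs.

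Nuclei were kept at 300 to 7000 genes, under 10% mitochondrial and 3% haemoglobin UMIs and under 100000 UMIs (71 and 29 left out), and those with the highest Scrublet scores (Scanpy 1.11.5) were removed at 0.8% per 1000 nuclei (1178 and 2644). A nucleus entered a class when the mean over its markers of log2(1 + UMIs per 10000) passed a limit between 0.75 and 2 with at least 3 markers detected; neurons also needed 1.5 for general neuronal genes. These limits were set after the scores were seen. UMIs were summed per class and divided by all UMIs of the class. Intervals are exact 95% Poisson, binomial and conditional binomial intervals (SciPy 1.17.1); they cover counting error only. A gene needed 50 UMIs over both libraries to be counted as past 2-fold, and 200 to be given in full. With 1 library per group no test was run. The intervals were checked only on simulated Poisson counts, the model they assume. That check cannot say how they hold where UMIs gather in few nuclei. Members and lists were chosen with earlier results of these data known.

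All members were named in classes with at least 50 nuclei per library; of other chaperone lists, the genes with 200 UMIs past 2-fold in oligodendrocytes, and the 5 genes most correlated with *Cryab* and with *Hspa8*. Motifs were searched in RefSeq windows of GRCm38.p6, and gene positions come from GENCODE on GRCm38. Alternatives are given in the closing section.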

Additional observations from a re-analysis of the deposited data

Results flagged for a closer look

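*Hspa1b* differed in opposite directions in 2 classes. Its log2 ratio of SAH over Normal was 2.12 in cortical and hippocampal excitatory neurons and -1.16 (interval -2.16 to -0.17) in oligodendrocytes, where it had 19 UMIs in each library. The difference was not tested, as there is 1 library per group. Without the 37 SAH nuclei with at least 3 *Hspa1a* and *Hspa1b* UMIs the neuronal ratio was -0.21. The oligodendrocyte ratio was -0.51 after subtraction of genes of like length. Thinned to 1000 UMIs a nucleus it was 0.10, with 4 UMIs left in 1586 Normal nuclei and 9 in 3321 SAH nuclei. Another random draw left 5 and 7 UMIs, found in 0.315% of Normal and 0.181% of SAH nuclei, which is lower in SAH. With so few UMIs the direction in oligodendrocytes was not settled at matched depth.

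*Cryab* was also found at high counts in SAH nuclei outside the 6 compared classes. All nuclei in no gate or in more than 1 held 129 *Cryab* UMIs in Normal and 152 in SAH. Their log2 ratio was -0.37 (-0.72 to -0.02). Of the SAH nuclei outside the oligodendrocyte gate, 11 had at least 3 *Cryab* UMIs and up to 16, all of them in no gate and with a median of 2191 UMIs. In Normal 4 such nuclei were found, with at most 4 UMIs and a median of 22055 UMIs, and 0 of them in no gate. Together the 11 nuclei held 71 *Cryab* UMIs among 22776, or 3117 CPM, above the 386 of Normal oligodendrocytes, but the nuclei were chosen for their *Cryab* counts. They also held 28 UMIs of *Hsp90aa1*, 32 of *Hspa5* and 20 of *Hspa8*. Of the inducible genes they held 8 UMIs of *Hspa1a*, 8 of *Hspa1b* and 6 of *Hspb1*. Among the 37 nuclei with at least 3 *Hspa1a* and *Hspa1b* UMIs was 1 of the 11, and it alone held 6, 4 and 5 of these. Of the oligodendrocyte markers 7 of 8 were detected, with 39 UMIs in all (1712 CPM, against 15726 in SAH oligodendrocytes). Of the general neuronal markers 4 of 6 were detected, with 26 UMIs (1142 CPM, against 10840 in SAH cortical and hippocampal neurons). The border macrophage and ependymal markers had 9 UMIs each (1 of 6 and 3 of 7 detected), the thalamic neuron markers 7 and the astrocyte markers 6. Each other list had at most 5 UMIs, and no UMI of the mural and fibroblast, red blood cell or neutrophil markers was found. Besides *Cryab* itself, the genes with the largest excess over other SAH nuclei and at least 20 UMIs were *Pkd2l1* and *Neat1*, the latter a nuclear long non-coding RNA, with 23 and 208 UMIs. The nuclei were left without a name.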

How the results depend on the processing

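No paired analysis was possible because each group has 1 library. *Cryab* in oligodendrocytes kept its direction under every alternative run: its log2 ratio was -2.68 when each nucleus took the class whose markers had most UMIs, -2.40 centred on genes of like length and -2.69 when thinned, and, in subsets chosen after seeing the data, -2.57 with *Opalin*, -3.07 with *Anln* or *Hapln2*, and -2.60, -3.16 and -2.72 in 3 of 4 groups of nuclei by depth. The count of members at least 2-fold lower in oligodendrocytes went from 5 to 3 centred on genes of like length. With a minimum of 20 UMIs 6 were at least 2-fold lower, with *Hspa1b* added (19 UMIs in each library). Only 1, *Hspb1* (1 and 25 UMIs), was then at least 2-fold higher. The share of all genes past 2-fold was not computed at that minimum, so nothing is read from these counts. The share of oligodendrocytes with a *Cryab* UMI was 47.0% and 11.4% not thinned, and 17.0% and 2.58% at 500 UMIs. Of other chaperone genes, 7 were at least 2-fold lower with a minimum of 200 UMIs and 3 centred on genes of like length. The number of SAH nuclei with several *Hspa1a* and *Hspa1b* UMIs was 50 at a minimum of 2 and 30 at 5. Of 41 other member ratios, 24 left their counting interval when centred on genes of like length. Those that changed sign after passing 2-fold were *Hspa1b* in cortical and hippocampal neurons without the 37 nuclei (-0.21) and *Dnajb1* in inhibitory neurons when thinned (0.14, with 6 UMIs left in each library). A stricter marker gate put *Hspa1a* and *Hspa1b* in cortical and hippocampal neurons at 0.89 and 0.96. With 1 library per group, depth limits the rare genes most: *Hspb1* had 21 UMIs in all Normal nuclei.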
